A study of Caenorhabditis elegans with 8 samples.

Results

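The *clec* genes of *C. elegans* encode proteins with C-type lectin-like domains. Every probe that is not a control and whose gene symbol begins with *clec-* was taken, the symbol being read through the sequence name that the array annotation gives for the probe. This gave 239 probes for 237 genes, out of 20401 probes on the array, which stand for 18872 genes with a sequence name. The RefSeq gene table (assembly WBcel235) lists 264 *clec* genes, of which 27 had no probe here. Of the 237 measured members, 19 are listed as pseudogenes. They lie on chromosome V (82 genes), chromosome IV (51), chromosome II (48), chromosome I (35), chromosome III (18) and chromosome X (3).

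C-type lectin-like domains are a protein fold first known for binding carbohydrates in a calcium-dependent way, although many members of the fold bind other ligands. Most worm *clec* genes encode secreted proteins, several of which also carry a CUB domain or a von Willebrand factor type A domain. In worms the family is best known for genes that respond to bacterial infection in the intestine, and some of its members are controlled by the insulin-like pathway, in which the DAF-2 receptor acts through the phosphoinositide 3-kinase AGE-1 to hold back the transcription factor DAF-16.

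Gene expression in 3 mutant strains was compared with wildtype N2 on two-colour Agilent arrays, to find genes that *age-1* controls and to learn where *age-1* has to act. The first group (2 arrays) was *age-1(mg44)*, that is *sqt-1(sc13)* *age-1(mg44)* animals without zygotic *age-1*, which reach adulthood because their mothers, of strain SP75 and heterozygous for this chromosome over the balancer mnC1, supplied *age-1* (m+z-). The other groups carried an integrated transgene in the same *sqt-1(sc13)* *age-1(mg44)* background, *bvIs1* with *age-1* restricted to the intestine in CY262 (3 arrays) and *bvIs2* with *age-1* restricted to neurons in CY251 (3 arrays). All mutant strains therefore shared the *sqt-1(sc13)* and *age-1(mg44)* mutations, which wildtype N2 lacked, and each transgenic strain is a single line whose promoter is not given in the sources used here. Animals were synchronised as L1 larvae and grown for 72 h at 20°C to the late L4 or young adult stage, and the wildtype controls were of a similar or slightly later stage.

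On each array the strain was labelled with Cy3 and wildtype with Cy5, so every value below is a log2 ratio of strain to wildtype, positive where the strain was higher. Dyes were not swapped. A probe with a dye bias is shifted in every comparison with wildtype, whereas such a shift cancels between strains. The article gives the arrays as biological replicates but 3 replicates of N2 for 8 arrays, so wildtype RNA may be shared, and p values measure the spread between these arrays. The share of spots well above background ran from 86.1% to 92.8% over channels and arrays, and any 2 arrays correlated at 0.63 to 0.94 across all genes. *age-1* itself was lower than wildtype on all 8 arrays, with a log2 ratio of -1.35 in *age-1(mg44)* and -1.46 in the transgenic strains. Its probe thus showed no rise with the transgenes, and the reason was not tested. Animals also differed from wildtype in germline markers. Of 25 sperm markers, 22 were called higher in *age-1(mg44)* (median log2 ratio 5.97), and of 17 oocyte and embryo markers 12 were called lower (median -1.54). Stage and *age-1* therefore cannot be told apart in any comparison with wildtype, nor can fewer cells of a type and less RNA per cell.

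The strain of 4 arrays is disputed between the deposited records. The arrays recorded as CY262 replicate 2 and CY251 replicate 2 have files named for the other strain. In the deposited value table these arrays and both replicate 3 arrays stand under other samples. CY262 and CY251 arrays were therefore pooled as 6 arrays with restored *age-1*, for which the dispute has no bearing, and values of single arrays carry the strain and replicate as recorded.

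Most C-type lectin genes were close to wildtype in all strains. Of the 237 members, 168 were within 2-fold of wildtype on every array, and the median log2 ratio of the family was 0.00018 in *age-1(mg44)* and -0.01 with restored *age-1*, beside -0.01 and -0.01 over all genes. In the wildtype channel 165 members were well above background on all 8 arrays, whereas 19 members were well above background in neither channel of any array. A subset, described below, departed strongly from wildtype. On all 8 arrays 51 members had a ratio above 0 and 35 a ratio below 0. These counts take the sign alone, whatever the size of the ratio. A probe with a dye bias can also keep 1 sign on all arrays, and the share over all genes is not given here.

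In *age-1(mg44)*, 35 members were higher than wildtype at an adjusted p below 0.05 (limma with Benjamini-Hochberg adjustment over all genes), and 11 were lower. These are 14.8% and 4.64% of the family. Over all genes 13.5% were called higher and 10.4% lower. At least 2-fold higher were 29 members (12.2%, beside 7.81% of all genes) and at least 2-fold lower were 4 members (1.69%, beside 2.68%). The family therefore had about the background share of rises, a larger share of rises of at least 2-fold and a smaller share of falls, a description that was not tested. The median log2 ratio of the 35 was 1.77, with a range from 0.26 to 4.26, whereas 7 of the 11 lower members were within 2-fold of wildtype. With the arrays centred on their median in place of loess, 120 members were called higher and 16 lower, beside 31.1% and 32.3% of all genes, and the family median was 0.37, beside -0.01.

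**Figure D1:**
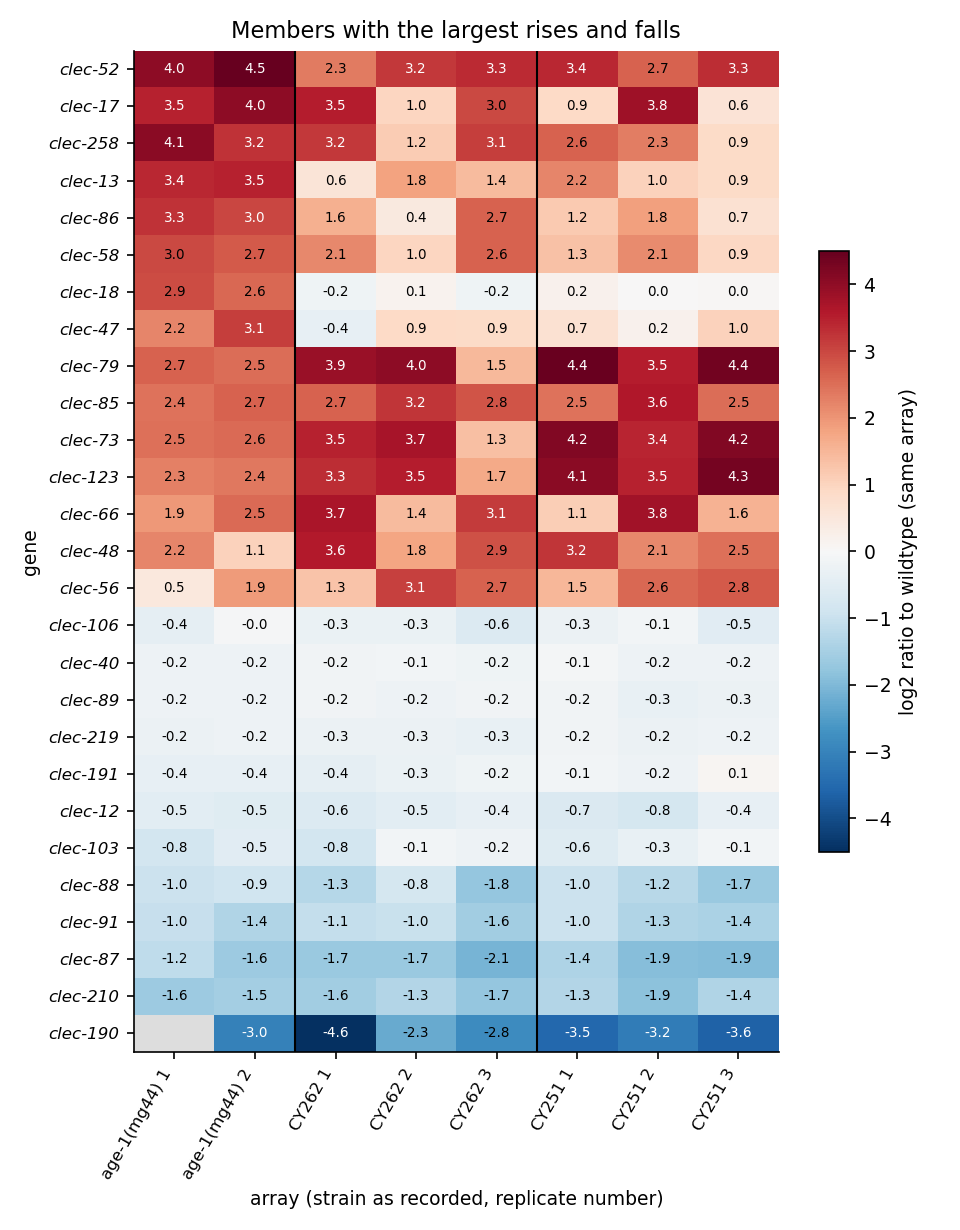
Log2 ratio of strain to wildtype on each of the 8 arrays (columns, strain as recorded and replicate number) for the members with the largest rises and falls (rows, ordered by the mean of the 2 *age-1(mg44)* arrays). Red is higher and blue lower than wildtype, and the grey cell is an outlier spot that was left out. *clec-52* stands at 2.34 or more on every array, and *clec-18* is high on the *age-1(mg44)* arrays only.

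*clec-52* (B0218.8), a gene described in the response to *Staphylococcus aureus*, had the largest rise. Its log2 ratio was 4.03 and 4.49 on the *age-1(mg44)* arrays, a mean 19.1-fold above wildtype (log2 4.26, SE 0.27, limma adjusted p = 0.00013). On the restored arrays it was 2.34, 3.19 and 3.34 in CY262 and 3.39, 2.66 and 3.30 in CY251. All 8 values lay far above wildtype, and the 2 *age-1(mg44)* values lay above all 6 of the others.

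*clec-17* (E03H4.10), another gene described in bacterial infection, and *clec-258* (M162.2) followed. *clec-17* stood at 3.47 and 4.02 in *age-1(mg44)*, 13.4-fold above wildtype (adjusted p = 0.018). *clec-258* stood at 4.05 and 3.25, or 12.5-fold (adjusted p = 0.0054). For both genes the *age-1(mg44)* arrays lay closer together than the restored arrays. The latter ran from 0.60 to 3.80 for *clec-17* and from 0.87 to 3.19 for *clec-258*. *clec-13* (H16D19.1), which encodes a CUB and C-type lectin protein and which the study names for antimicrobial defence, was 10.8-fold above wildtype (3.38 and 3.47, adjusted p = 0.0011). Its probe is annotated to *clec-15* as well, so the pair cannot be told apart.

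*clec-86* (C54D1.2) reached 3.25 and 3.01, 8.75-fold above wildtype (adjusted p = 0.0043). *clec-58* (ZK666.3), with a von Willebrand factor type A domain, reached 2.97 and 2.75, or 7.24-fold (adjusted p = 0.0038). *clec-85* (Y54G2A.6) was 5.87-fold higher, at 2.45 and 2.66 (adjusted p = 0.0013). For each of these genes the spread between both arrays was small beside the rise.

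A trio of genes, *clec-79* (F47C12.4), *clec-73* (Y46C8AL.1) and *clec-123* (Y25C1A.1), was raised in *age-1(mg44)* and stood higher still on most restored arrays. *clec-73* was at 2.50 and 2.56 in *age-1(mg44)*, 5.76-fold above wildtype (adjusted p = 0.022), and *clec-123* was at 2.26 and 2.37, or 4.99-fold (adjusted p = 0.018). *clec-79* was not well above background in wildtype on 7 of 8 arrays, and its level in *age-1(mg44)* was at least 5.67-fold that of wildtype, a bound taken from the dimmest signal well above background on each array. These genes lie on chromosomes IV and II and are not all neighbours.

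Among 12 measured genes that have been described in bacterial infection, a list chosen with earlier results of these data known, 8 were higher in *age-1(mg44)* and none lower, with a median log2 ratio of 1.49. They were *clec-17*, *clec-49*, *clec-52*, *clec-60*, *clec-67*, *clec-70*, *clec-85* and *clec-86*. The share of all genes called higher was 13.5%. Since the list was chosen with results known, the gap to that share cannot be read as a result about infection genes. *clec-60* was 2.60-fold and *clec-67* 3.02-fold above wildtype (adjusted p = 0.046 and 0.034). *clec-39*, *clec-42*, *clec-61* and *clec-71* did not pass the test, with log2 ratios of 0.07, -0.17, 0.15 and 0.80. *clec-61* was not well above background in wildtype on any array.

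The deposited descriptions name a von Willebrand factor domain for 10 members, of which 4 were higher in *age-1(mg44)*, none was lower and the median log2 ratio was 1.01. The higher genes were *clec-58*, *clec-60*, *clec-62* and *clec-143*. The share of all genes called higher was 13.5%, and the gap to it was not tested. A CUB domain is named for 6 members. Of these *clec-13* and *clec-18* were higher, *clec-12* was lower and the median was 0.09. Most members (143) have the description Unknown, so these domain groups are incomplete.

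The falls were fewer and mostly small. *clec-190* (M199.4) was furthest below wildtype, at -3.04 on the only *age-1(mg44)* array with a usable spot and between -4.58 and -2.26 on the restored arrays. It is counted among the 11 by a fit in which its spread came from the restored arrays and the other genes, and that of its *age-1(mg44)* level was not measured. *clec-210* (Y73C8C.2) was at -1.62 and -1.54, a 2.99-fold fall (adjusted p = 0.00064). No array of either gene came near wildtype.

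*clec-87*, *clec-91* and *clec-88* also fell in *age-1(mg44)*. *clec-87* (C25A1.8), whose wildtype signal was saturated on all 8 arrays, was at -1.15 and -1.64, at least 2.63-fold lower (adjusted p = 0.0025). *clec-91* (ZK858.3) was at -1.03 and -1.35, or 2.28-fold lower (adjusted p = 0.0029), and *clec-88* (K10B2.3) was at -0.98 and -0.90, or 1.92-fold (adjusted p = 0.022). Their values lay in the same direction as the oocyte and embryo markers, whose median was -0.90 and -2.13 on the *age-1(mg44)* arrays and between -1.71 and -0.66 on the restored arrays. The part of those markers in the falls was not tested. The other called falls, of *clec-103*, *clec-12*, *clec-191*, *clec-219*, *clec-89* and *clec-40*, ranged from -0.67 to -0.23. With median centring *clec-89* turned to 0.29 and *clec-103*, *clec-12*, *clec-191* and *clec-40* no longer passed. *clec-12* and *clec-89* were not well above background in *age-1(mg44)*, and wildtype was at least 1.43-fold and 1.18-fold above it.

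Without *age-1(mg44)* replicate 1, 14 members were called higher and 4 lower. Without replicate 2 the counts were 8 and 2. With 1 array left the spread came from the restored arrays, and the lone array was taken to vary like them, so a loss of calls is partly built into the smaller sample. The share of all genes called in these fits is not given here, so the loss in the family cannot be set against it.

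With restored *age-1*, measured on 6 arrays, 65 members were higher than wildtype and 46 lower (limma, adjusted p below 0.05). These are 27.4% and 19.4% of the family, beside 28% and 26% of all genes. At least 2-fold higher were 38 members (16%, beside 10% of all genes), whereas 40 of the 46 lower members were within 2-fold of wildtype. The median log2 ratio was 1.18 over the 65 and -0.19 over the 46. With median centring in place of loess, 153 members were called higher and 26 lower, beside 39% and 39.2% of all genes. Without the 4 disputed arrays, 29 were called higher and 9 lower, and the share of all genes under this setting is not given here.

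**Figure D2:**
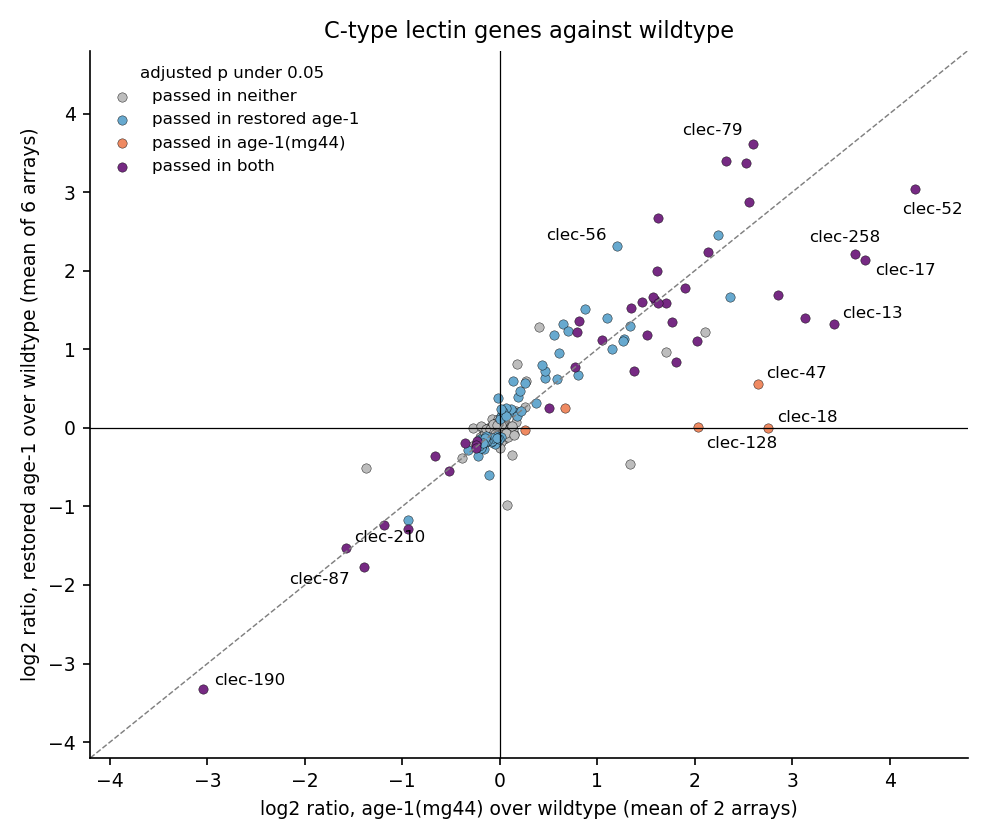
Mean log2 ratio to wildtype of each of the 237 members in *age-1(mg44)* (horizontal axis, 2 arrays) and with restored *age-1* (vertical axis, 6 arrays). The dashed line marks equal values and colours show which comparison passed an adjusted p of 0.05 in limma. Most members lie near the line, and *clec-18* and *clec-128* lie at about 0 on the vertical axis.

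The largest mean ratios with restored *age-1* were those of the trio named above. *clec-79* was at 3.90, 4.03 and 1.45 in CY262 and 4.44, 3.52 and 4.36 in CY251, with a mean of 3.62 (adjusted p = 0.00018). Wildtype was well above background on 1 of these 6 arrays, so the size of this ratio rests on a signal close to background. *clec-73* ran from 1.34 to 4.17 and *clec-123* from 1.72 to 4.30, with the lowest value on CY262 replicate 3 for all of these genes. Without that array the *age-1(mg44)* values were below every remaining one. That array was singled out for its low values, so this order is partly built in. It cannot show a rise with the transgenes. Against *age-1(mg44)* the differences were 1.02, 0.85 and 1.08 on the log2 scale, with limma adjusted p values of 0.71, 0.74 and 0.63. The 95% interval for *clec-79* ran from -0.70 to 2.73.

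*clec-85*, *clec-48* (C14A6.1), *clec-66* (F35C5.9) and *clec-56* (F08H9.7) were also among the 8 largest rises with restored *age-1*. The place of *clec-66* rests on its brighter probe, with a mean of 2.45, since its other probe had a mean of 1.31. The probe of *clec-48* is annotated to *clec-49* as well. *clec-85* was between 2.45 and 3.62 on the 6 arrays, the narrowest range of these genes relative to its mean. *clec-56* was at 0.49 and 1.91 in *age-1(mg44)* (log2 1.20, adjusted p = 0.12) and between 1.29 and 3.09 with restored *age-1* (log2 2.31, adjusted p = 0.00044). The groups overlapped, and the difference between them was 1.11 (adjusted p = 0.60).

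Of the 12 infection-described genes, 10 were higher than wildtype with restored *age-1* and none was lower, with a median log2 ratio of 1.23. Of the 10 genes with a von Willebrand factor domain 7 were higher, with a median of 1.02. The share of all genes called higher was 28%. Neither gap to that share was tested, and the infection list was chosen with earlier results of these data known. Among the falls, *clec-190* was 10-fold below wildtype (log2 -3.33, SE 0.28), *clec-87* at least 3.43-fold, *clec-210* 2.89-fold, *clec-88* 2.44-fold and *clec-91* 2.35-fold. *clec-106* fell by 0.36 on the log2 scale. *clec-12* was well above background on none of the 6 arrays, and wildtype was at least 1.44-fold above it.

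Restored *age-1* was compared with *age-1(mg44)* directly, to find the members that changed with the transgenes. Between these groups 2 members passed the test, *clec-18* and *clec-128*, and both were lower with restored *age-1* (0.844% of the family, beside 0.0583% or 11 of 18860 genes tested). None was higher, whereas 0.0053% of all genes, a single gene, was called higher. At an unadjusted p below 0.05, 10 members were lower (4.22%, beside 5.13% of all genes) and 4 were higher (1.69%, beside 4.41%). Both shares were below those over all genes.

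**Figure D3:**
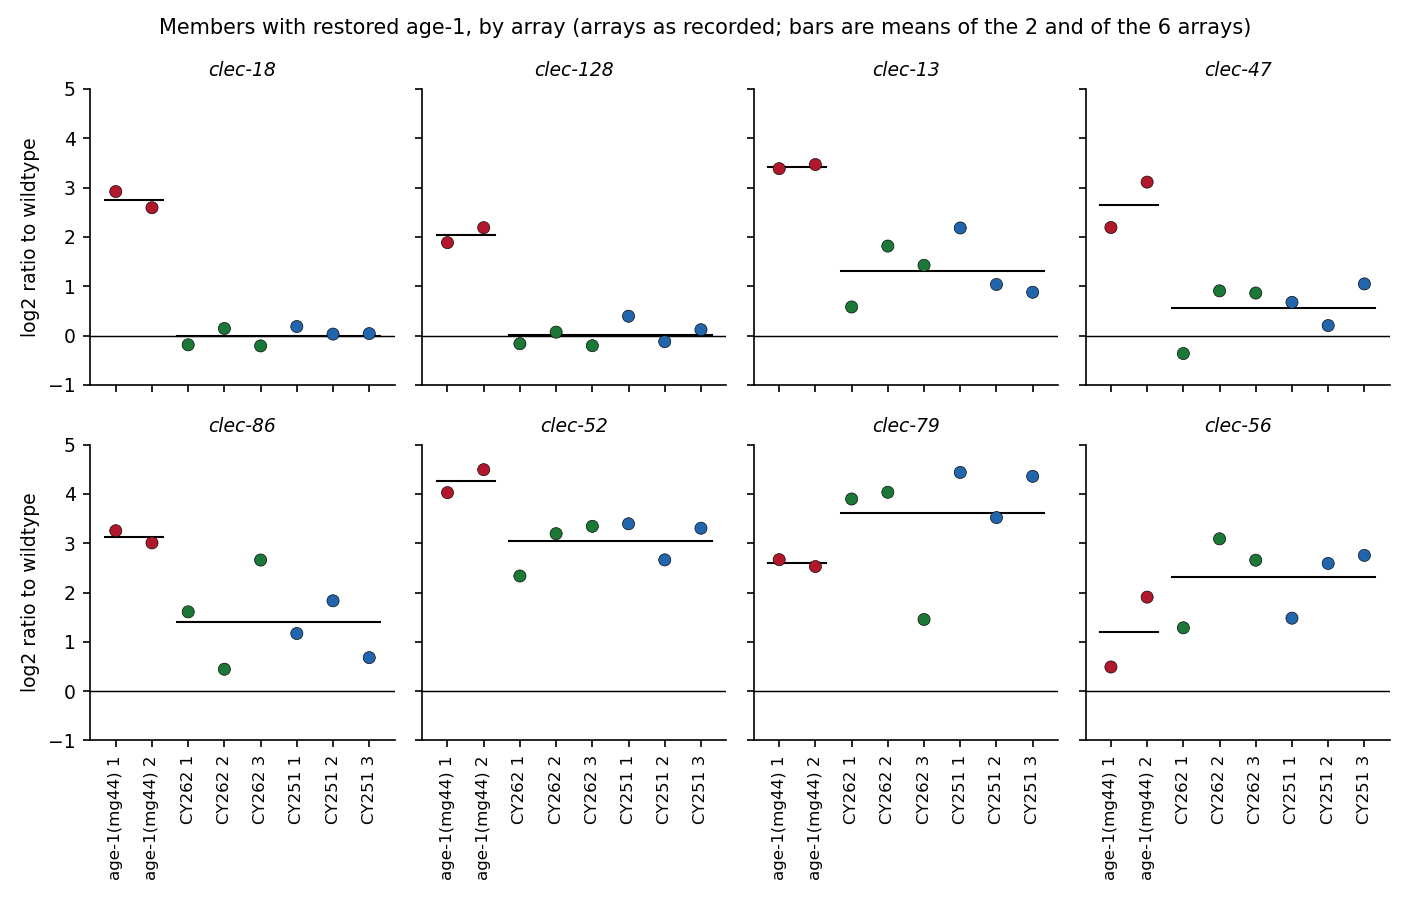
Log2 ratio to wildtype on each array for 8 members, with arrays as recorded (red *age-1(mg44)*, green CY262, blue CY251). Bars are the means of the 2 and of the 6 arrays. The restored arrays of *clec-18* and *clec-128* lie between -0.21 and 0.39, those of *clec-13*, *clec-47*, *clec-86* and *clec-52* lie below both *age-1(mg44)* arrays, and those of *clec-79* and *clec-56* lie mostly above.

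*clec-18* (F56H6.8), a CUB and C-type lectin gene, gave the clearest contrast. Its log2 ratio was 2.92 and 2.59 in *age-1(mg44)* and -0.19, 0.14, -0.21, 0.18, 0.03 and 0.04 on the restored arrays, which surround wildtype. The difference was -2.76 (SE 0.14, adjusted p = 0.0016), and no restored array came near the *age-1(mg44)* values. Wildtype was not well above background on any array, while the strain was so on both *age-1(mg44)* arrays and on 1 of 6 restored arrays. The size of the difference and its spread therefore rest on signals close to background. Over 23 settings of the processing the difference for *clec-18* ran from -5.52 to -0.74. The level of *clec-18* in *age-1(mg44)* was at least 6.62-fold that of wildtype.

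*clec-128* (W10G11.6) was bright enough to be measured in both channels of all arrays. It was at 1.88 and 2.19 in *age-1(mg44)*, 4.10-fold above wildtype (adjusted p = 0.00026), and at -0.17, 0.07, -0.21, 0.39, -0.12 and 0.12 with restored *age-1*. The difference was -2.02 (SE 0.17, adjusted p = 0.014). Again the 6 restored values surrounded wildtype. The strains overlapped with the arrays as recorded, whereas under the file names the 3 arrays of CY262 lay below those of CY251 for *clec-128* and for *clec-18*, by 0.36 and 0.24 on average (limma adjusted p = 0.36 and 0.59). The call of *clec-128* was lost without *age-1(mg44)* replicate 1 (limma adjusted p = 0.11), without *age-1(mg44)* replicate 2 (0.36) or without CY262 replicate 2 (0.078). That of *clec-18* was kept when any single array was left out, with an adjusted p of at most 0.047. Without the 4 disputed arrays the adjusted p of both was 0.41.

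A further 8 members were lower before the adjustment only. *clec-13* was at 3.38 and 3.47 in *age-1(mg44)* and at 0.58, 1.81, 1.42, 2.18, 1.04 and 0.88 on the restored arrays, a difference of -2.11 (limma adjusted p = 0.19). *clec-47* (T09F5.9) was at 2.19 and 3.11, and at -0.36, 0.91, 0.86, 0.67, 0.20 and 1.05, a difference of -2.10 (limma adjusted p = 0.19). Neither gene had overlapping groups. *clec-13* was still 2.50-fold above wildtype with restored *age-1* (adjusted p = 0.0012), whereas *clec-47* was at 0.55 (adjusted p = 0.051).

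*clec-86*, *clec-52*, *clec-58* and *clec-70* differed by -1.73, -1.22, -1.16 and -0.92 (limma adjusted p from 0.29 to 0.50), and on every restored array each of them lay above wildtype and below both *age-1(mg44)* arrays. *clec-14*, a listed pseudogene whose probe is also annotated to *clec-16*, differed by -0.29. *clec-160*, with *age-1(mg44)* arrays at 2.10 and 0.57 and restored arrays from -1.76 to 1.07, differed by -1.79 with overlapping groups. The 4 members that were higher at an unadjusted p, *clec-49*, *clec-238*, *clec-193* and *clec-214*, differed by 0.54, 0.39, 0.31 and 0.22 (limma adjusted p from 0.45 to 0.50). The probes of *clec-238* and *clec-193* are each annotated to another *clec* gene.

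For CY262 against CY251, with the arrays as recorded, no member passed the test in limma and no gene of the array did (0% in each direction). At an unadjusted p below 0.05, 2 members were lower in CY262, *clec-151* by 0.82 and *clec-260* by 0.27 on the log2 scale, and 0 were higher, beside 0.7% and 0.0954% of all genes. The methods' t-test gave 0 members at p of 0.05 or less, beside only 1.15% of all genes. The values of *clec-4* (Y38E10A.5), which the study names in the comparison of these strains, were 3.40, 0.46 and 2.14 in CY262 and 0.49, 3.12 and 0.36 in CY251. They overlapped fully, with a difference of 0.67 and an adjusted p of 1. On the *age-1(mg44)* arrays *clec-4* was at 2.32 and 2.40.

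**Figure D4:**
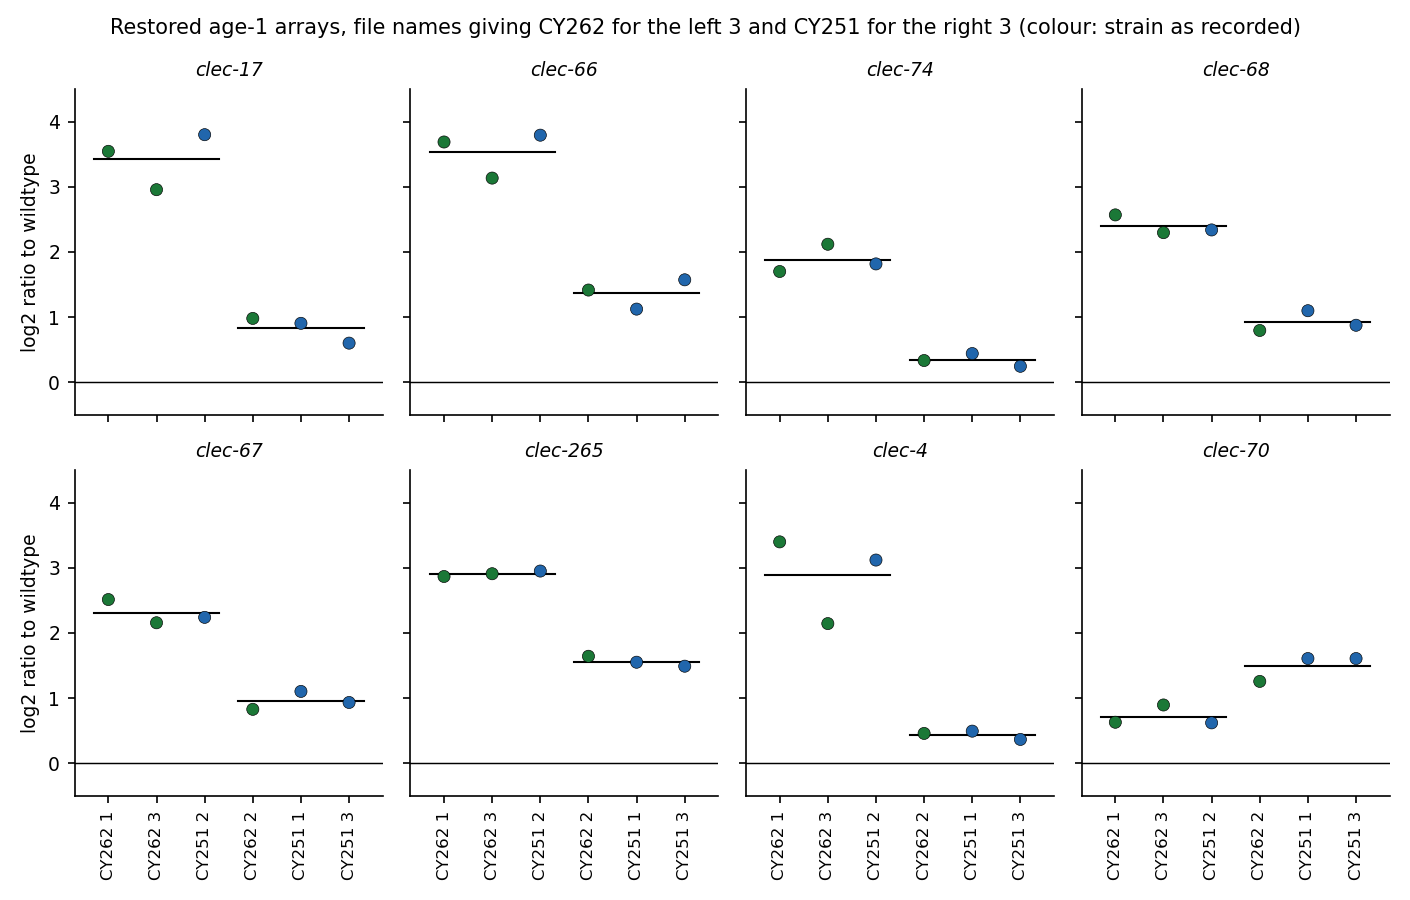
Log2 ratio to wildtype of 8 members on the 6 restored arrays, ordered so that the files of the left 3 are named for CY262 and those of the right 3 for CY251. Colours give the strain as recorded (green CY262, blue CY251) and bars are means of 3 arrays. All members but *clec-70* lie higher on the left 3 arrays, and *clec-70* lies lower there.

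The spread of *clec-4* recurred in other members. Under the file names, which exchange the replicate 2 arrays of both strains, 6 members were higher in CY262 than in CY251 at an adjusted p below 0.05 (2.53%, beside 0.106% or 20 genes over all), and none was lower (beside 0.0424%). At an unadjusted p below 0.05 the counts were 20 (beside 4.53%) and 10 (beside 5.87%). They were *clec-17*, *clec-66*, *clec-74* (Y46C8AL.8), *clec-68* (F56D6.1), *clec-67* (F56D6.2) and *clec-265* (M02F4.7). The strain of the disputed arrays cannot be settled from these values, and under the value table's assignment no member passed (0% in each direction).

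*clec-17* was at 3.54, 2.96 and 3.80 on the arrays whose files are named for CY262, and at 0.98, 0.90 and 0.60 on those named for CY251, a difference of 2.60 (SE 0.25, limma adjusted p = 0.023). *clec-66* was at 3.69, 3.13 and 3.79 against 1.42, 1.12 and 1.57 (2.17, adjusted p = 0.037), and its second probe was split in the same way. *clec-265* was at 2.86, 2.91 and 2.95 against 1.64, 1.55 and 1.49 (1.35, adjusted p = 0.0053). All of these values were above wildtype, and within each set of 3 arrays the spread was far below the gap between the sets.

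*clec-74*, *clec-68* and *clec-67* differed by 1.54, 1.48 and 1.35 between the same sets (limma adjusted p = 0.018, 0.014 and 0.018). *clec-67* and *clec-68* are neighbours with almost the same value on every array. *clec-4* differed by 2.45 (adjusted p = 0.054). The largest difference was that of *clec-45*, with 2.68, 1.21 and 4.33 against -0.04, -0.20 and -0.26 (2.90, adjusted p = 0.24), and its neighbour *clec-46*, a listed pseudogene, was at 1.57, 0.56 and 3.03 against -0.00, -0.12 and -0.20. *clec-45* was at 0.04 and 0.76 in *age-1(mg44)*, so its high values were found on those 3 restored arrays alone.

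In all, the 3 arrays of each set did not overlap for 21 members higher in CY262 (8.86%, beside 5.47% of genes) and 22 lower (9.28%, beside 8.54%). As recorded these counts were 2 (beside 1.05%) and 11 (beside 2.48%), and under the assignment of the value table they were 5 (beside 2.06%) and 4 (beside 1.3%). The lower members under the file names included *clec-5*, which is not on the infection-described list, and *clec-60* and *clec-70*, which are. *clec-70* was at 0.63, 0.89 and 0.62 against 1.26, 1.61 and 1.61 (limma adjusted p = 0.12). Members of the infection-described list therefore lay on both sides. The median of 14 hypodermis markers was split by the same sets, at 0.87 to 1.17 against 0.37 to 0.77, whereas the medians of the intestine, neuron, sperm, oocyte and yolk lists overlapped between them. The part of the hypodermis markers in these differences was not tested.

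**Figure D5:**
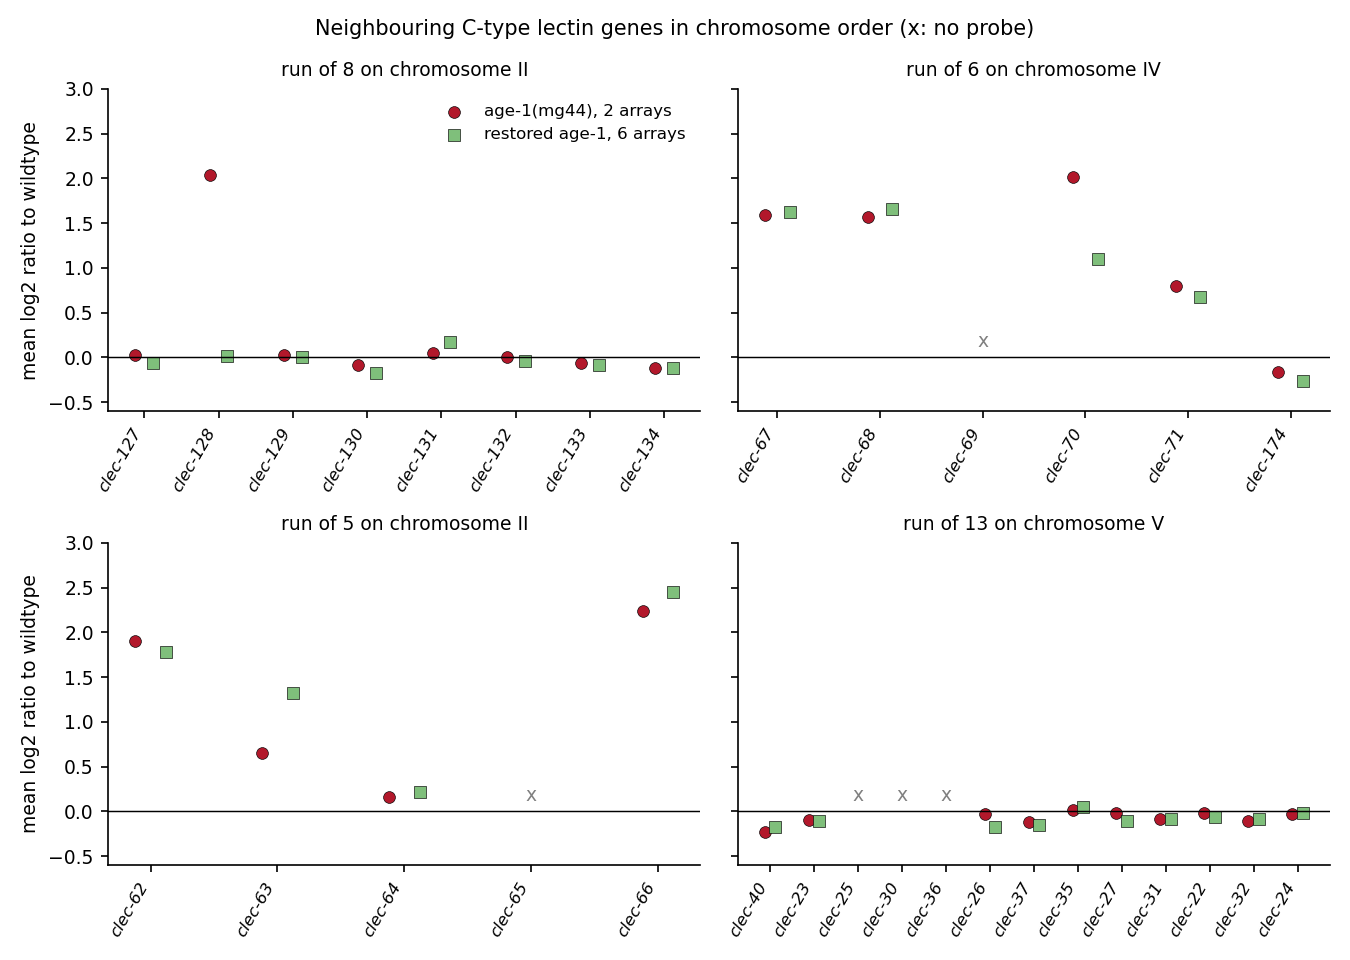
Mean log2 ratio to wildtype of neighbouring *clec* genes in 4 runs, in chromosome order (circles *age-1(mg44)*, 2 arrays; squares restored *age-1*, 6 arrays; x marks a gene without a probe). *clec-128* stands alone at 2.04 in its run of 8, and the run of 13 stays between -0.23 and 0.05.

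Many members are neighbours. Of the *clec* genes listed by RefSeq, 137 form 45 runs of 2 or more with no other protein-coding gene or pseudogene between them, and 122 of the measured members lie in such runs. Of these 17 were called higher in *age-1(mg44)* and 1 lower, compared with 18 and 10 of the 115 members that stand alone. Of the 82 members on chromosome V 6 were higher, and of the 51 on chromosome IV 12 were. Over all genes 13.5% were called higher and 10.4% lower in *age-1(mg44)*. The counts by run and chromosome are descriptive, since neighbouring copies can share sequence.

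Within runs the members differed. *clec-128* lies in a run of 8 (*clec-127* to *clec-134*) on chromosome II, in which the other genes had log2 ratios between -0.11 and 0.05 in *age-1(mg44)*. In a run of 6 on chromosome IV, *clec-67*, *clec-68* and *clec-70* were called higher in *age-1(mg44)* (1.60, 1.57 and 2.02) while *clec-71* and *clec-174* were at 0.80 and -0.17. In a run of 5 on chromosome II, *clec-62* was called higher, at 1.90. *clec-66*, *clec-63* and *clec-64* in that run were not called, at 2.24, 0.65 and 0.16. *clec-66* was at 1.95 and 2.53 on the *age-1(mg44)* arrays. Its SE of 0.71 also took in the spread of its restored arrays, from 1.12 to 3.79. Its missing call is therefore no sign that it differed from *clec-62*. The value of *clec-66* is that of its brighter probe, and its other probe had a mean of 0.89 in *age-1(mg44)*. The longest run, 13 genes on chromosome V that begins with *clec-40*, had no member called higher in either comparison, and its 10 measured genes ranged from -0.23 to 0.02 in *age-1(mg44)*. *clec-13* and *clec-14* share a run with *clec-15* and *clec-16*, which the same probes are annotated to.

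Other lectins and defence genes were set beside the family. For comparison, 13.5% of all genes were called higher in *age-1(mg44)* and 28% with restored *age-1*. The shares called lower were 10.4% and 26%. Galectins, the lec genes, which bind beta-galactosides, were more uniform. Of 12 galectins 9 were higher in *age-1(mg44)* and 12 with restored *age-1*, none was lower, and the medians were 1.56 and 1.49. Of 34 intestinal immune effectors, which include lysozymes and saposin-like proteins, 14 were higher and 1 lower in *age-1(mg44)*, and 16 and 7 with restored *age-1* (medians 1.10 and 0.63). The lysozyme *lys-7*, a known DAF-16 target, was at 5.47 and 3.33 in *age-1(mg44)* and from 0.56 to 4.28 on the restored arrays. *spp-12*, a saposin-like gene, was at 3.76 and 3.21 and from -0.54 to 1.11 there, a difference of -3.17 (limma adjusted p = 0.087).

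Of 24 regulators of immunity and of the insulin-like pathway, 3 were higher and 5 lower in *age-1(mg44)*, and 12 and 5 with restored *age-1*. The mean log2 ratio of *daf-16* was -0.08 in *age-1(mg44)* and 0.36 with restored *age-1*, and that of *pmk-1*, the p38 kinase of the immune pathway, was 0.17 and -0.02. Of 13 intestine markers 6 and then 10 were higher and none was lower, with medians of 0.89 and 0.80. In none of these lists did a gene pass the test between restored *age-1* and *age-1(mg44)*. For yolk proteins, made in the intestine, 2 of 6 were lower in *age-1(mg44)* and 0 with restored *age-1*, with medians of -1.32 and -0.26.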

How the data were processed

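RNA of 2 *age-1(mg44)*, 3 CY262 and 3 CY251 samples was hybridised with wildtype RNA on 8 two-colour arrays. Per the file headers, the authors read the intensity of each spot with version A.7.5.1 of Agilent Feature Extraction, and the deposited log10 values are its ratio of red (wildtype) to green (strain), of which the value table holds a part. The raw intensity was corrected here with normexp (offset 50) and the log2 ratio was normalised by loess within arrays (R 4.3.3, limma 3.58.1), with the sign turned. All probes passed the study's minimum raw wildtype signal of 100. Outlier spots were left out (2 among the members), spots of a probe were averaged, and the brightest probe was kept for the 2 members with several (*clec-66* and *clec-88*). limma was fitted to all 8 arrays with a mean for *age-1(mg44)* and for restored *age-1*, or for each strain, with Benjamini-Hochberg adjustment over 18860 to 18872 genes and a threshold of 0.05. The methods' t-test used signal over the array mean. The fit was tested on simulated data, with an outcome that is not given here, so that test lends no weight to the results.

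Members, lists and tests were chosen with earlier results of these data known. Named members had the largest called rises or falls with 1 sign on all arrays of the group, the largest unadjusted differences between groups, a mention in the study, or a place in the infection list. Those named for the strains of the file names and for runs, and *clec-62*, *clec-143*, *clec-45* and *clec-46* among them, were chosen after their values were seen, as were *lys-7*, *spp-12*, *daf-16* and *pmk-1*. Alternatives changed background, normalisation, outliers, filter, probe, variance, weights, blocks, arrays, assignment and test. Leaving out the 4 disputed arrays was chosen after seeing the data. For dim or saturated probes a fold is a lower bound. The value table's columns were matched to arrays at a tolerance of 1e-05. No genome or sequence table was used here.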

Additional observations from a re-analysis of the deposited data

Results flagged for a closer look

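On the array recorded as CY262 replicate 3, *clec-79* had a log2 ratio of 1.45, while the next lowest of the 6 restored arrays had 3.52. On the same array *clec-73* had 1.34, while the next had 3.41. In both cases the gap took more of the range than the 95% critical value for 6 samples allows. Such a gap was looked for in 44 named members, and chance alone gives about 1 in 20. The strain of this array is disputed between the records.

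*clec-18* and *clec-128* differed between restored *age-1* and *age-1(mg44)*, by -2.76 and -2.02 on the log2 scale (limma, adjusted p = 0.0016 and 0.014).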

How the results depend on the processing

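Beside the alternatives named here, counts of called members stayed within 1.5 times. A count printed without a share of all genes cannot be set against the whole array. For *age-1(mg44)* against wildtype, 35 members were higher and 11 lower. Without background subtraction 23 were higher, with median centring 120, and with the replicate block 19 were lower. With the methods' t-test, adjusted over all genes, 0 were higher and 0 lower, although 174 members (73.4%) and 53.5% of all genes had p of 0.05 or less, and without the 4 disputed arrays 7 were lower. Leaving out single arrays gave 8 to 37 higher and 2 to 11 lower. For restored *age-1* against wildtype, 65 were higher and 46 lower. Median centring gave 153 and 26, the methods' t-test 214 and 7 (beside 61.6% and 21% of all genes), the 4 undisputed arrays, that is without the disputed ones, 29 and 9, and leaving out single arrays 57 to 62 and 33 to 45. Between restored *age-1* and *age-1(mg44)*, 2 members were lower, and this count was 0 with Agilent's processed signal, with the methods' t-test and without the 4 disputed arrays, and 1 to 2 without single arrays. Between CY262 and CY251 as recorded 0 members were called, also with any single array left out, and with the strains of the file names 6 were higher in CY262. The family median in *age-1(mg44)* moved from 0.00018 to 0.37 with median centring, and from -0.01 to 0.36 with restored *age-1*. The signal ratios of the methods' t-test moved it furthest, to 0.77 and 0.65, and moved the median of all genes to 0.55 and 0.46.

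Under the methods' t-test, beside that common shift, the direction turned in *age-1(mg44)* for *clec-103* (0.56), *clec-12* (0.66), *clec-191* (0.64), *clec-219* (0.35), *clec-89* (0.77) and *clec-40* (0.63), and with restored *age-1* for *clec-12* (0.55), *clec-103* (0.56) and *clec-106* (0.46). Median centring turned *clec-89* (0.29) and *clec-42* (0.34) in *age-1(mg44)*. The cause was not tested. Replicate numbers could not be taken to pair all arrays. The deviations of same-numbered arrays correlated at 0.61 to 0.78 for replicate 1, at 0.44, 0.55 and -0.16 for replicate 2 and at 0.23 for replicate 3. The value of -0.16 is that of 2 disputed arrays, 5 of 8 arrays correlated best with one of their own number, and the block changed no other call count by over 1.5 times. For 19 members with no channel well above background, no change could be measured.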
